A study of Mus musculus with 8 samples.

Results

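The genes described here are 50 genes of mitosis, the cell division step in which the copied chromosomes are condensed, attached to a spindle and pulled apart. They were measured in 3 populations of dendritic cell (DC) progenitors from mouse bone marrow. The genes came from a list of textbook mitosis genes, which was chosen with earlier results of these data known. Shares and medians set beside those of all genes are therefore description, not a test. Each gene was read from a probe set that the platform annotation assigns to exactly 1 gene. Such a probe set was found for 49 of the 50, and all 49 were among the 13356 genes with enough signal to be tested. Ccnb1, the gene of cyclin B1, is not analysed here.

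Bone marrow cells were sorted by flow cytometry from mice heterozygous for a Zeb2-GFP fusion reporter, in which green fluorescent protein is joined to the transcription factor Zeb2. The 3 groups were Zeb2hi common DC progenitors (Zeb2hi CDPs, 3 arrays), Zeb2low CDPs (3 arrays) and pre-CD8 DCs (2 arrays), which are precursors of the CD8+ type 1 conventional DCs (cDC1). All 3 groups carry the reporter, so no group with unmodified Zeb2 is compared. Age, sex and the antibodies of the sort are missing from the labels, and nothing there ties an array to a mouse or a sort of its own. The spread behind the p-values is that between these arrays and may be technical. RNA was amplified with a kit for very small amounts of total RNA and hybridised to Affymetrix arrays. In the study's design text the purpose is to obtain expression signatures of DC progenitors and their order along development.

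Entry into mitosis is driven by the kinase Cdk1 bound to a cyclin. The spindle checkpoint then holds the cell until each chromosome is attached, after which the anaphase-promoting complex with its activator Cdc20 releases the sister chromatids and destroys cyclin B. Most of these genes are transcribed late in the cell cycle, from promoters that often hold a cell cycle homology region, bound by the MuvB complex with B-Myb or FoxM1, and boxes bound by the factor NF-Y. DC progenitors divide in the marrow while they commit to a DC lineage. The RNA of mitosis genes can reflect how many of a population's cells are near division, which was not tested here.

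The promoter windows of 5 genes are printed because these genes had the smallest adjusted p-values among the mitosis genes, and they show where the motifs just named lie in 3 of them and that the other 2 hold none. They run from 250 bases before to 50 bases after the transcription start of RefSeq, in build GRCm38.p6, and are written 5′ to 3′ on the gene's strand. Capitals mark the cell cycle homology region (searched as TTTGAA or TTCGAA) and the NF-Y box (searched as CCAAT), each on both strands. Birc5 is at chr11:117848987-117849286 on the plus strand, Cdk1 at chr10:69352863-69353162 on the minus strand, Mad2l1 at chr6:66534971-66535270 on the plus strand, Prc1 at chr7:80294201-80294500 on the plus strand and Cenpa at chr5:30666636-30666935 on the plus strand.
Birc5: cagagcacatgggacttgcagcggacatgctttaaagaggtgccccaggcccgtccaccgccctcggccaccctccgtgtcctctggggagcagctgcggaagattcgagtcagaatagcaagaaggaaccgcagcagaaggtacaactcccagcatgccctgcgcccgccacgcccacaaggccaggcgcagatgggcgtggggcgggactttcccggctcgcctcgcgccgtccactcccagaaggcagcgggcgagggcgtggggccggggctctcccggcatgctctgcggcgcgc
Cdk1: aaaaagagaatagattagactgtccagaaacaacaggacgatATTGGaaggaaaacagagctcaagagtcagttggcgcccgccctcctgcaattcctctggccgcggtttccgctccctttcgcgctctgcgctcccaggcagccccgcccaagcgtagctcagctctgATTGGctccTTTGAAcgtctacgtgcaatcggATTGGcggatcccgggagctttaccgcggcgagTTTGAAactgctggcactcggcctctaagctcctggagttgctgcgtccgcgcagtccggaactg
Mad2l1: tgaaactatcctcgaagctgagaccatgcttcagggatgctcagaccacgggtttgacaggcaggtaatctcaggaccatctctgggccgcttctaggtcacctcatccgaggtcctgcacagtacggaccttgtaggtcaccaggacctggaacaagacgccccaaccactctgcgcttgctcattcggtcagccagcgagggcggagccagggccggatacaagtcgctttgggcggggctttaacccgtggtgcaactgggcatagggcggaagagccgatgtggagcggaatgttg
Prc1: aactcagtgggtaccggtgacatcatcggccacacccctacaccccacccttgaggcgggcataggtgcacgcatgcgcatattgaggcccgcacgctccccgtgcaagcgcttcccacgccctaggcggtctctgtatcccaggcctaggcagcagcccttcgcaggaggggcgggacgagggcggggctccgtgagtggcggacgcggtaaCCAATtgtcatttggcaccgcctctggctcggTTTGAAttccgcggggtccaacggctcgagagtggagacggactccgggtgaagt
Cenpa: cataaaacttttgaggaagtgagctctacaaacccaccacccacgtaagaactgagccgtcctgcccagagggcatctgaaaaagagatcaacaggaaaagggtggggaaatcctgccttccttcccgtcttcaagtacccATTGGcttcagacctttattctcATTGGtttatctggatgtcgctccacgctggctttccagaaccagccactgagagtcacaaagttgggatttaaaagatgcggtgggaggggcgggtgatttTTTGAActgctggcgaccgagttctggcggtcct
In the Cdk1 window a homology region began 15 bases before the start and another 71 bases before it, with NF-Y boxes 48, 80 and 208 bases before the start. In the Prc1 window the homology region began 5 bases before the start and the NF-Y box 37 bases before it. In the Cenpa window the homology region began 16 bases after the start, with NF-Y boxes 86 and 109 bases before the start. The 2 windows without these letters are those of Birc5 and Mad2l1, which says nothing of the factors.

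RefSeq promoters were found for 41 of the 50 genes, with 44 windows in all. Of these 44 windows 36 held a homology region (81.8%), against 13.9% of the 13355 windows of all genes tested. The homology region lay within 50 bases of the start in 31 windows of mitosis genes (70.5%), against 3.56% of the windows of all genes tested. An NF-Y box was in 35 windows (79.5%, against 37.0%), and 33 of the 44 windows held both motifs (5.65% of the windows of all genes tested did). The core of the E2F site (searched as TTCCCGC, as TTGGCGC, as TTCGCGC and as TTGCCGC, on both strands), which is typical of genes of DNA replication, was in 9 windows (20.5%, against 15.5%). Among the 40 windows of DNA replication genes the shares were 22.5% for the homology region, 55.0% for the NF-Y box and 62.5% for the E2F core. Matches of 2 motifs overlapped in 4 windows of mitosis genes. Within the mitosis genes the homology region was in 8 of the 10 genes with a window that passed the test described next, and in 25 of the 31 others. The genes that passed and had none were Birc5 and Mad2l1.

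**Figure D1:**
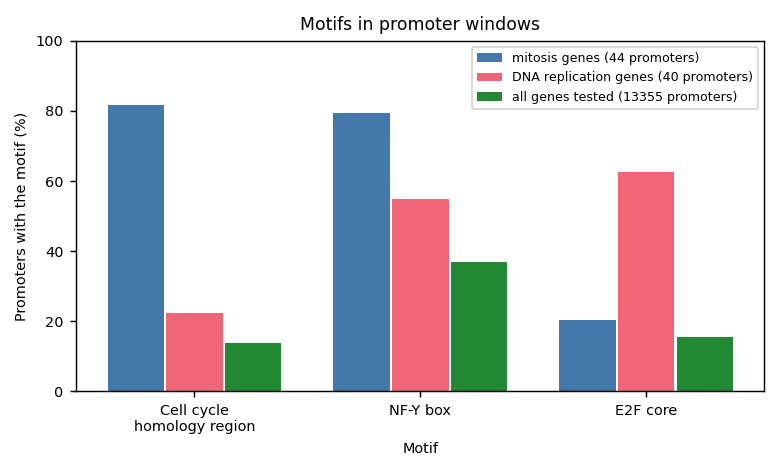
Share of promoter windows (percent, vertical axis) that hold each of 3 motifs, for the mitosis genes, the DNA replication genes and all genes tested. The homology region is in 81.8% of the mitosis windows against 22.5% of the replication windows, and the E2F core in 20.5% against 62.5%.

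The labels were compared with marker genes before the results were read. Zeb2 itself had a mean log2 signal of 9.27 ± 0.20 in Zeb2hi CDPs, 7.68 ± 0.18 in Zeb2low CDPs and 6.73 ± 0.28 in pre-CD8 DCs, in the order the names imply. Here and below a value after ± beside a group mean is the SD over its arrays (n = 3 for each CDP group, n = 2 for pre-CD8 DCs), and beside a difference it is the standard error of the fit. Zeb2 is 1 of 7 listed DC progenitor genes, and the only one of them called between the CDP groups. In pre-CD8 DCs against Zeb2hi CDPs this list went both ways. Zeb2 and Csf1r (-1.75, adjusted p = 0.00779) were lower, while Kit (1.02, adjusted p = 0.0295) and Csf2ra (1.28, adjusted p = 0.014) were higher. Flt3, Csf2rb and Irf8 were called in no comparison. All 8 of 8 pre-CD8 DC and cDC1 genes were higher in pre-CD8 DCs than in Zeb2hi CDPs (7 after a further quantile normalization). Between the CDP groups 5 of the 8 were higher in Zeb2low CDPs. Among the 8, Xcr1 (3.57) and Tlr3 (3.98) had Zeb2hi means below those arrays' 40th percentile (4.31 to 4.40). Xcr1 had an SD of 1.8 over the pre-CD8 arrays. Neutrophil markers moved with the groups too, with 4 of 10 higher in Zeb2low than in Zeb2hi CDPs (4.5% of all genes were higher) and 5 of 10 higher in pre-CD8 DCs than in Zeb2hi CDPs (6.51% of all genes). The other markers of this list did not pass, among them Mpo (-1.75, adjusted p = 0.0759) and Elane (-1.06, adjusted p = 0.239), whose means were lower in Zeb2low CDPs. The summed signal of the 10 was 18058 to 26978 in Zeb2hi CDPs, 23207 to 46140 in Zeb2low CDPs and 32013 to 52859 in pre-CD8 DCs. None of the 10 was at the floor of the arrays, the dimmest being Cebpe with a mean of 5.92 in Zeb2hi CDPs, and their part in the results below was not tested. Between the CDP groups 1 of 6 monocyte markers was lower and 1 higher, 1 of 6 B cell markers was lower and 1 higher, 3 of 5 T and NK cell markers and 2 of 5 mast cell and basophil markers were higher, and 0 of 5 erythroid markers passed. Only 5 of 9 listed T and NK cell markers and 5 of 7 listed mast cell and basophil markers had enough signal to be tested. Of those higher, Cpa3 (3.86), Fcer1a (3.49) and the B cell marker Cd79a (3.58) had Zeb2hi means below those arrays' 40th percentile (4.31 to 4.40). Cd3e (5.29), Il7r (4.93) and Thy1 (5.67) were above it. The 2 pre-CD8 arrays correlated with each other at r = 0.937 across genes, below the value of array 1 with Zeb2low array 2 (r = 0.958) and of array 2 with Zeb2low array 3 (r = 0.966). The mitosis genes lay high on the arrays, with log2 signals from 5.73 to 10.96 against array medians of 4.91 to 5.14.

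Mitosis genes were lower in Zeb2low than in Zeb2hi CDPs for 12 of the 49 genes, and none was higher. The 12 were the kinase gene Cdk1, its cyclin Ccnb2 and its activator Cdc25c, the kinases Aurka and Aurkb, the checkpoint and anaphase genes Mad2l1, Bub3 and Cdc20, the passenger protein Birc5, the centromere histone Cenpa, and the cytokinesis genes Prc1 and Racgap1. Their differences ranged from -0.44 to -1.12 on the log2 scale, or from 1.36-fold to 2.17-fold. The 12 genes are 24.5% of those measured, and 10.3% of all genes tested were lower in the same comparison (4.5% were higher). All Zeb2low arrays lay below all Zeb2hi arrays for 22 of the 49 genes (21.5% of all genes did so) and above them for 0 (20.2% of all genes). The median difference over the 49 genes was -0.26, with a range from -1.12 to 0.41, against a median of 0.03 over all genes. Among the 8976 genes that passed a stricter filter on signal, 15.3% were lower, and the 12 mitosis genes were lower there too. A gene passed at an adjusted p under 0.05 (limma, Benjamini-Hochberg over all 13356 genes). In sorted populations measured in bulk, fewer dividing cells and less of these RNAs per cell cannot be told apart.

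This count depended on how the arrays are scaled. When the values were quantile normalized once more, 0 of the 49 genes passed and the median difference was -0.04, while 7.19% of all genes were still lower. The deposited arrays differ in their upper range, where mitosis genes lie: the 85th percentile of log2 signal was 7.83 to 7.91 on the Zeb2hi arrays and 7.60 to 7.73 on the Zeb2low arrays. That scaling moved the differences of the mitosis genes up by 0.23 in the median, and Birc5, for example, stood at -0.46 with an adjusted p of 0.146. All 12 genes kept their negative sign under it, from -0.11 for Ccnb2 to -1.01 for Cdc25c. When each array was centred on its median instead, all genes shifted by -0.16 in the median and 18 of the 49 genes were lower, against 16.7% of all genes.

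**Figure D2:**
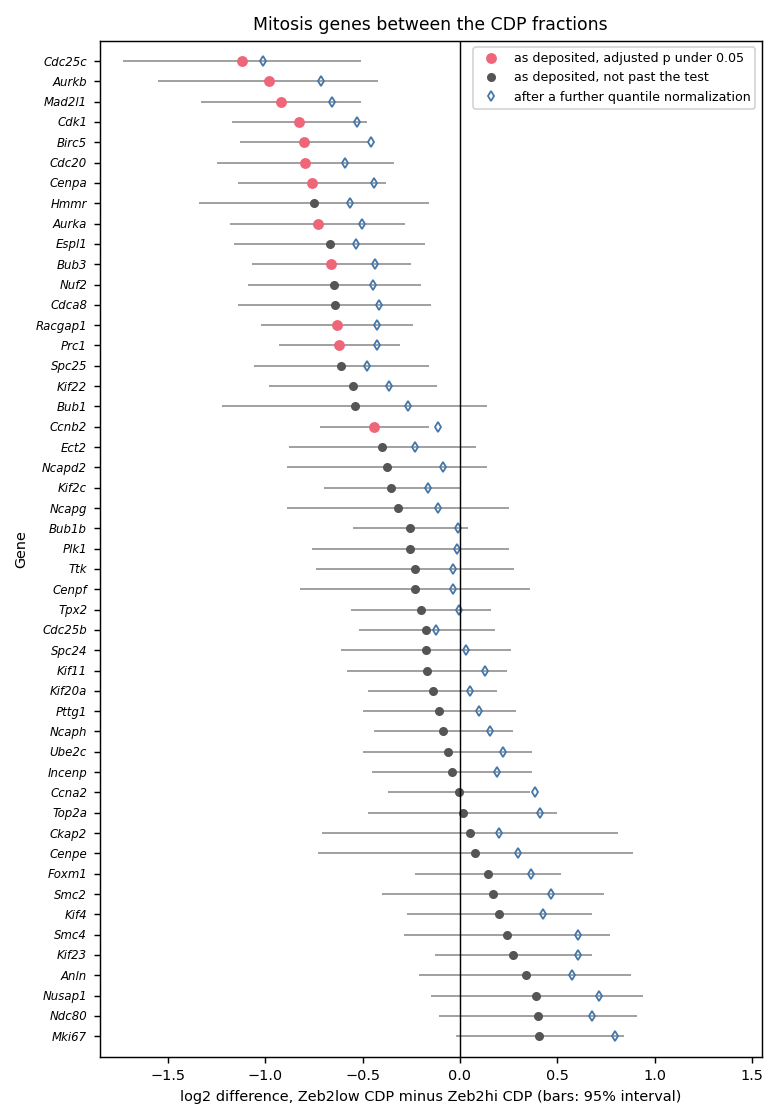
Difference in log2 signal between Zeb2low and Zeb2hi CDPs (horizontal axis) for each of the 49 mitosis genes, in order of size. Filled points are the deposited values with their 95% interval, red where the adjusted p is under 0.05 (12 genes, all below 0), and open diamonds are the values after a further quantile normalization, under which 0 genes pass.

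The count also rested on single arrays. It was 1 without Zeb2hi array 2 and 2 without Zeb2hi array 3, when only 2.68% and 3.04% of all genes were lower. It was 7 without Zeb2low array 1 (7.75% of all genes), 3 without Zeb2low array 2 (5.68%) and 4 without Zeb2low array 3 (5.62%). In 2 of the 8 fits counted next the array left out was a pre-CD8 array, which is in neither group of this comparison. Those 2 fits left both CDP groups complete, and every number that follows includes them. The tallies of fits for other genes below likewise include fits that left out an array of the group not compared. Birc5 passed in each of the 8 fits that left out 1 array, Mad2l1 in 7, Cdk1 in 6, Aurkb, Cenpa and Prc1 in 4, Aurka, Bub3, Cdc20, Cdc25c and Racgap1 in 3 and Ccnb2 in 2.

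Arrays with the same number in both CDP groups deviated together in their values, though the labels give the numbers no meaning. Within the pairs, 29 of the 49 genes were lower in Zeb2low CDPs in all 3 pairs (59.2%, against 32.2% of all genes) and 5 were higher in all 3. The median difference over the mitosis genes was -0.20, -0.40 and -0.13 in pairs 1, 2 and 3. With the number as a block over the CDP arrays 18 genes were lower, against 19.0% of all genes, and 1 was higher, against 11.5%. The 18 were the 12 named above with Cdca8, Espl1, Hmmr, Kif22, Nuf2 and Spc25, and the gene that was higher was Mki67 (0.41, adjusted p = 0.0473). Mki67 encodes the proliferation marker Ki-67, and without the block its adjusted p was 0.169.

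**Figure D3:**
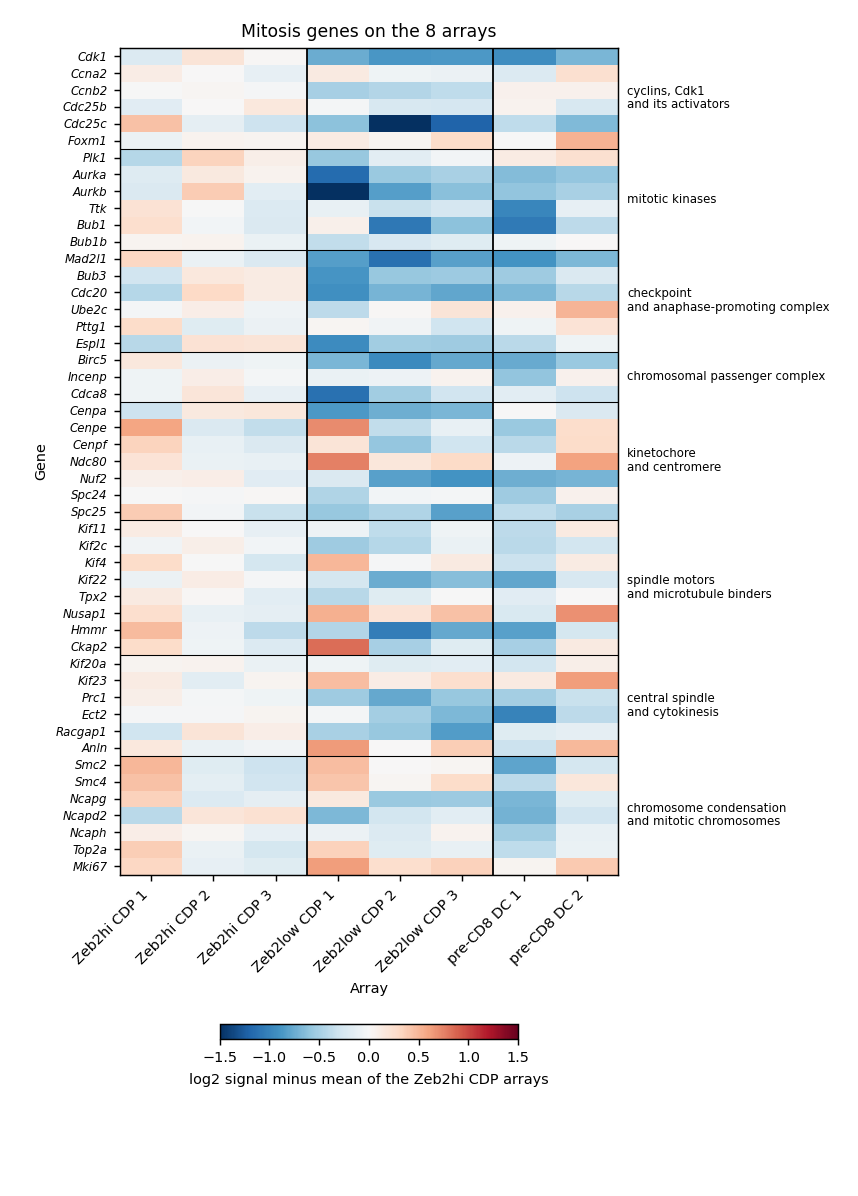
Log2 signal of each of the 49 mitosis genes on the 8 arrays, as the difference from the mean of the 3 Zeb2hi arrays (blue lower, red higher), with the genes grouped by role. The Zeb2low columns are mostly blue in the upper rows (Cdk1 to Cenpa), and the chromosome condensation genes at the bottom, except Mki67, are lower on pre-CD8 array 1 than the Zeb2hi mean.

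Among the cyclins, Cdk1 and its activators, 3 of 6 measured genes were lower in Zeb2low than in Zeb2hi CDPs. Cdk1, the kinase that starts mitosis, had log2 signals of 9.45, 9.84 and 9.67 on the Zeb2hi arrays, 8.905, 8.79 and 8.79 on the Zeb2low arrays and 8.72 and 8.97 on the pre-CD8 arrays. The Zeb2low and pre-CD8 arrays all lay below every Zeb2hi array, and these 2 groups overlapped each other. The difference between the CDP groups was -0.83 ± 0.15 (1.77-fold, adjusted p = 0.0108). Cdc25c, a phosphatase that activates Cdk1, read 7.71, 7.13 and 6.96 in Zeb2hi CDPs, 6.65, 5.73 and 6.06 in Zeb2low CDPs and 6.89 and 6.61 in pre-CD8 DCs. It differed most of the 49 genes between the CDP groups (-1.12 ± 0.27, 2.17-fold, adjusted p = 0.0272), and array 1 was the highest of its group in both. Ccnb2, the gene of cyclin B2, read 9.87, 9.91 and 9.86 in Zeb2hi CDPs, 9.38, 9.44 and 9.50 in Zeb2low CDPs and 9.945 and 9.94 in pre-CD8 DCs. Its arrays differed little within each group, and the Zeb2low group alone was low (-0.44 ± 0.12, adjusted p = 0.0429). The cyclin A2 gene Ccna2 had means of 10.69, 10.68 and 10.70 in the 3 groups, with a 95% interval of -0.37 to 0.36 for the CDP difference. Cdc25b (-0.17 ± 0.15) and Foxm1 (0.15 ± 0.17), a transcription factor of mitosis genes, did not pass.

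**Figure D4:**
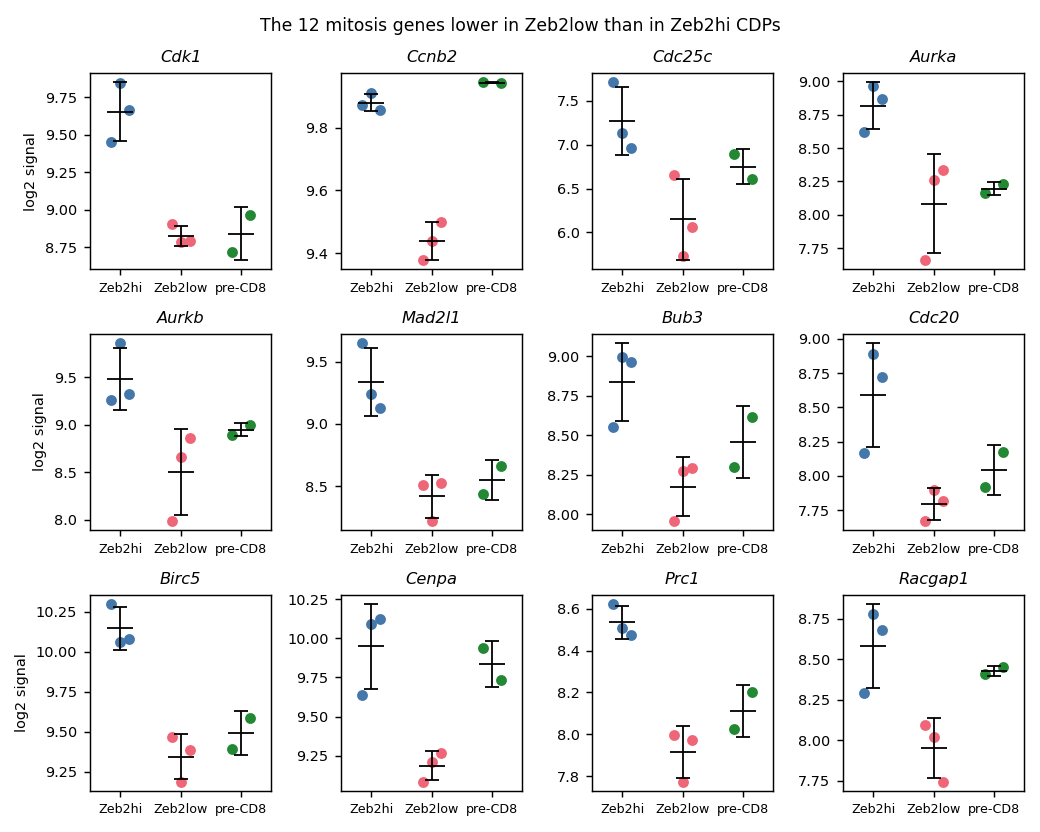
Log2 signal (vertical axis, scaled per gene) of the 12 mitosis genes that were lower in Zeb2low than in Zeb2hi CDPs. Points are arrays, and bars are the mean and SD of each group; the pre-CD8 arrays lie near the Zeb2low arrays for Cdk1, Birc5 and Mad2l1 and near the Zeb2hi arrays for Ccnb2 and Cenpa.

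Of the 6 mitotic kinase genes, Aurka and Aurkb were lower in Zeb2low CDPs and all 6 differences were negative. Aurkb, the kinase of the chromosomal passenger complex, read 9.26, 9.86 and 9.33 on the Zeb2hi arrays, 7.99, 8.66 and 8.86 on the Zeb2low arrays and 8.90 and 8.99 on the pre-CD8 arrays. Zeb2low array 1 was the lowest by a wide step, and the groups did not overlap (-0.98 ± 0.25, 1.98-fold, adjusted p = 0.0322). Aurka, the kinase of the spindle poles, read 8.62, 8.96 and 8.87 in Zeb2hi CDPs, 7.66, 8.26 and 8.33 in Zeb2low CDPs and 8.16 and 8.23 in pre-CD8 DCs. Here too Zeb2low array 1 was the lowest, and without that array the Aurka difference was -0.52 against -0.73 ± 0.20 with it (adjusted p = 0.0413). The polo-like kinase Plk1 (-0.26 ± 0.22) and the checkpoint kinases Ttk (-0.23 ± 0.23), Bub1 (-0.54 ± 0.30) and Bub1b (-0.26 ± 0.13) did not pass.

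Of the 6 genes of the spindle checkpoint and the anaphase-promoting complex 3 were lower in Zeb2low CDPs. Mad2l1, the Mad2 protein that holds Cdc20 inactive, read 9.65, 9.24 and 9.13 on the Zeb2hi arrays, 8.51, 8.22 and 8.53 on the Zeb2low arrays and 8.44 and 8.67 on the pre-CD8 arrays. The Zeb2low and pre-CD8 groups overlapped each other and lay below all Zeb2hi arrays (-0.92 ± 0.18 between the CDP groups, 1.89-fold, adjusted p = 0.0139). Bub3, which brings the checkpoint kinases to the kinetochore, read 8.55, 8.99 and 8.96, then 7.96, 8.27 and 8.29, then 8.30 and 8.62 in the same order of groups. Its Zeb2low arrays were below all others (-0.66 ± 0.18, adjusted p = 0.0407). Cdc20 read 8.17, 8.89 and 8.72 in Zeb2hi CDPs, 7.67, 7.90 and 7.82 in Zeb2low CDPs and 7.92 and 8.17 in pre-CD8 DCs. Array 1 was the lowest of both CDP groups, and the CDP groups did not overlap (-0.80 ± 0.20, 1.74-fold, adjusted p = 0.0315). The separase gene Espl1, whose product cuts cohesin, was at -0.67 ± 0.22 (adjusted p = 0.0708). The securin gene Pttg1 (-0.11 ± 0.17) and the ubiquitin-conjugating enzyme gene Ube2c (-0.06 ± 0.19) did not pass either.

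In the chromosomal passenger complex Birc5 was lower. Birc5 encodes survivin, which targets the complex to centromeres, and read 10.30, 10.06 and 10.08 on the Zeb2hi arrays, 9.46, 9.19 and 9.38 on the Zeb2low arrays and 9.39 and 9.59 on the pre-CD8 arrays. All Zeb2low and pre-CD8 arrays were below all Zeb2hi arrays (-0.80 ± 0.15 between the CDP groups, 1.74-fold, adjusted p = 0.0108). The SD was 0.14 in each of the 3 groups. The borealin gene Cdca8 was at -0.64 ± 0.22 (adjusted p = 0.081), and Incenp, the scaffold of the complex, at -0.04 ± 0.18 with a 95% interval of -0.45 to 0.37.

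Of 7 kinetochore and centromere genes Cenpa alone passed. Cenpa, the histone that marks centromeres, read 9.64, 10.09 and 10.12 in Zeb2hi CDPs, 9.08, 9.21 and 9.27 in Zeb2low CDPs and 9.94 and 9.73 in pre-CD8 DCs. The Zeb2low arrays were below the arrays of both other groups (-0.76 ± 0.17 against Zeb2hi CDPs, 1.70-fold, adjusted p = 0.0205). The subunits of the Ndc80 complex, which binds microtubules, did not share a direction: Nuf2 was at -0.65 ± 0.20 (adjusted p = 0.0589), Spc25 at -0.61 ± 0.20 (adjusted p = 0.0722), Spc24 at -0.17 ± 0.19 and Ndc80 at 0.40 ± 0.23 (adjusted p = 0.244). None of these 4 passed. The large kinetochore proteins Cenpe (0.08 ± 0.36) and Cenpf (-0.23 ± 0.26) had wide intervals. Array 1 stood above the other arrays in both CDP groups for both genes, and the SD of the pre-CD8 arrays was 0.58 for Cenpe and 0.47 for Cenpf.

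None of the 8 spindle motor and microtubule-binding genes passed in any comparison. The largest difference was that of Hmmr, which helps to organise spindle poles, with 8.55, 8.01 and 7.69 in Zeb2hi CDPs, 7.64, 7.05 and 7.31 in Zeb2low CDPs and 7.27 and 7.82 in pre-CD8 DCs. The CDP groups were separate by a narrow step (-0.75 ± 0.26, adjusted p = 0.0862). Kif22, a chromosome-bound kinesin, was at -0.55 ± 0.19 (adjusted p = 0.0856), and Kif2c, a kinesin that shortens microtubules, at -0.35 ± 0.15 (adjusted p = 0.149). Kif11, the motor that pushes spindle poles apart, Tpx2, Kif4, Ckap2 and Nusap1 lay between -0.20 and 0.39. Ckap2 had an SD of 0.70 among the Zeb2low arrays, where array 1 read 8.15 and the others 6.82 and 7.135.

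Of the 6 genes of the central spindle and cytokinesis, Prc1 and Racgap1 were lower. Prc1, which bundles the microtubules between the separating chromosomes, read 8.62, 8.51 and 8.48 on the Zeb2hi arrays, 7.998, 7.77 and 7.97 on the Zeb2low arrays and 8.02 and 8.20 on the pre-CD8 arrays. The 3 groups did not overlap at all, in the order Zeb2hi, pre-CD8, Zeb2low (-0.62 ± 0.14 between the CDP groups, adjusted p = 0.0204). Racgap1, a part of the centralspindlin complex, read 8.29, 8.78 and 8.68 in Zeb2hi CDPs, 8.095, 8.02 and 7.74 in Zeb2low CDPs and 8.41 and 8.45 in pre-CD8 DCs. The pre-CD8 arrays lay within the Zeb2hi range and the Zeb2low arrays below both (-0.63 ± 0.17, adjusted p = 0.0414). Its partner in that complex, the kinesin Kif23, was at 0.27 ± 0.18 (adjusted p = 0.307), so that the 2 subunits lay on opposite sides of 0. Ect2, which activates the contractile ring, was at -0.40 ± 0.21, Kif20a at -0.14 ± 0.14 and the ring's scaffold Anln at 0.34 ± 0.24, and none of these passed.

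None of the 7 genes of chromosome condensation and mitotic chromosomes passed between the CDP groups. Their differences lay between -0.37 and 0.41, and their median was 0.02 (0.41 after a further quantile normalization). Smc2, a core subunit of condensin, read 9.70, 9.03 and 8.89 on the Zeb2hi arrays, 9.68, 9.22 and 9.24 on the Zeb2low arrays and 8.42 and 8.95 on the pre-CD8 arrays. Array 1 was high in both CDP groups, and the pre-CD8 arrays were below all Zeb2low arrays (-0.70 ± 0.28, adjusted p = 0.342). The other core subunit Smc4 was at 0.24 ± 0.23 between the CDP groups, and the condensin I subunits Ncapg, Ncapd2 and Ncaph at -0.32 ± 0.25, -0.37 ± 0.23 and -0.09 ± 0.16. Top2a, the topoisomerase that untangles sister chromatids, was at 0.02 ± 0.21 with a 95% interval of -0.47 to 0.50. Mki67 was at 0.41 ± 0.19, the gene named above as higher in the paired fit.

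Between Zeb2low CDPs and pre-CD8 DCs none of the 49 mitosis genes passed in either direction. Few genes did at all, with 0.217% of all genes lower and 0.337% higher in pre-CD8 DCs, so that a count of 0 is near the background. The median difference over the mitosis genes was 0.04 (-0.03 after a further quantile normalization), with 30 genes above 0. In 43 of the 49 genes the 95% interval lay within 1 log2 unit of 0, and the half-width of the interval was 0.50 in the median. Differences larger than that half-width did not pass the adjusted test either, such as that of Smc2 given above. Both pre-CD8 arrays lay above all Zeb2low arrays for 10 genes (20.4% of the 49; 12.4% of all genes), and below them for Smc2 alone (15.4% of all genes). The 10 were Ccnb2, Plk1, Aurkb, Bub1b, Bub3, Cdc20, Espl1, Cenpa, Prc1 and Racgap1. The largest of these differences were those of Cenpa (0.65 ± 0.19, adjusted p = 0.199) and Ccnb2 (0.51 ± 0.14, adjusted p = 0.169).

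Between Zeb2hi CDPs and pre-CD8 DCs 3 of the 49 genes were lower in pre-CD8 DCs, and none was higher. They were Cdk1 (-0.81 ± 0.17, 1.76-fold, adjusted p = 0.0136), Birc5 (-0.65 ± 0.16, 1.57-fold, adjusted p = 0.0267) and Mad2l1 (-0.79 ± 0.20, 1.73-fold, adjusted p = 0.0283). These are 6.12% of the mitosis genes, below the 11.1% of all genes that were lower (6.51% were higher). The median difference was -0.23, against -0.02 over all genes. Both pre-CD8 arrays lay below all Zeb2hi arrays for 14 genes (27.1% of all genes do) and above them for Ccnb2 and Kif23 (21.4% of all genes do). The count of 3 was 0 without Zeb2hi array 2, 0 without pre-CD8 array 1 and 6 without Zeb2low array 1, when 5.31%, 6.03% and 12.9% of all genes were lower. After a further quantile normalization Cdk1 alone passed (-0.65, adjusted p = 0.0442), where 8.46% of all genes were lower. Cdk1 was again the only gene when all 8 arrays were blocked by their number (7.47% of all genes lower). This comparison shares its Zeb2hi arrays with the comparison of the CDP groups, so the 3 genes are not a second, separate observation.

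The order of the group means differed between genes. Zeb2hi CDPs had the highest mean for 32 of the 49 genes (65.3%, against 39.9% of all genes), and Zeb2low CDPs the lowest for 28 (57.1%, against 25.7%). Pre-CD8 DCs had the lowest mean for 15 (30.6%, against 33.7%). In 13 genes every Zeb2low and pre-CD8 array lay below every Zeb2hi array, and 16.2% of all genes did so. These were Aurka, Aurkb, Birc5, Cdc25c, Cdca8, Cdk1, Ect2, Kif22, Kif2c, Mad2l1, Nuf2, Prc1 and Spc25. In 9 genes every Zeb2low array lay below every array of both other groups, where 3.89% of all genes did so. These were Aurkb, Bub1b, Bub3, Ccnb2, Cdc20, Cenpa, Espl1, Prc1 and Racgap1, so that Aurkb and Prc1 are in both sets. In the first set the lower pair of means, those of the Zeb2low and pre-CD8 arrays, did not pass the test against each other for any gene. In the second set the difference between the CDP groups passed for 7 of the 9 genes, and that between pre-CD8 DCs and either CDP group for none. Both sets were picked by the order of these same arrays, so the calls within them add no support.

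Within the groups, array 1 of the CDPs stood apart for many of the mitosis genes. In 21 genes it was the highest of its group in both CDP groups (42.9%, against 22% of all genes), among them Cenpe, Cdc25c, Smc2, Hmmr, Top2a, Bub1 and Mki67. In 10 genes it was the lowest in both, a share below that of all genes (20.4%, against 25.5%), and 18 genes were in neither class. The 10 were Aurka, Aurkb, Bub3, Cdc20, Cenpa, Espl1, Incenp, Kif2c, Ncapd2 and Plk1. Cenpe, for example, was 0.95 above the mean of the other arrays on Zeb2low array 1 and 0.88 above it on Zeb2hi array 1. Plk1 stood at -0.47 and -0.65 in the same places. The pre-CD8 arrays differed in another way: array 2 was above array 1 for 43 of the 49 genes (87.8%, against 57.4% of all genes), by 0.37 in the median (0.08 over all genes). The median log2 signal of the mitosis genes was 8.62, 8.80 and 8.69 on the Zeb2hi arrays, 8.49, 8.29 and 8.51 on the Zeb2low arrays and 8.18 and 8.62 on the pre-CD8 arrays. The pre-CD8 arrays thus lay on both sides of the Zeb2low arrays.

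**Figure D5:**
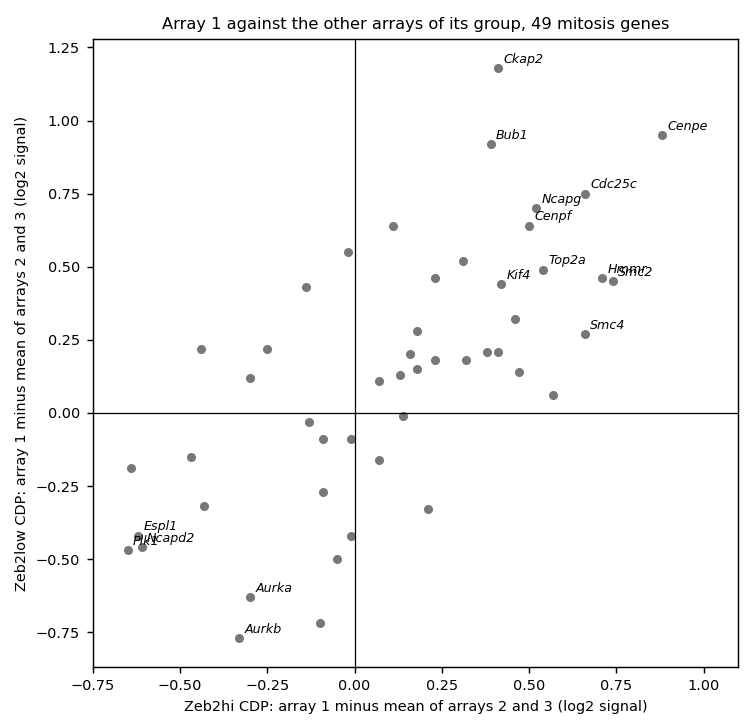
Log2 signal on array 1 minus the mean of arrays 2 and 3, in Zeb2hi CDPs (horizontal axis) and in Zeb2low CDPs (vertical axis), 1 point per mitosis gene, with names for the genes farthest from 0. Points such as Cenpe (0.88 and 0.95) lie at the upper right and points such as Plk1 (-0.65 and -0.47) at the lower left.

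Other genes of mitosis, listed by function and outside the 50, were counted in the same way. Of 115 tested, 15 were lower and 1 higher in Zeb2low than in Zeb2hi CDPs (10.3% of all genes were lower), with a median of -0.22. In pre-CD8 DCs 21 were lower and 2 higher than in Zeb2hi CDPs (18.3% lower, against 11.1%), with a median of -0.28, and 1 was lower than in Zeb2low CDPs. After a further quantile normalization 12 were lower and 1 higher between the CDP groups (median -0.01), and 11 were lower and 2 higher in pre-CD8 DCs than in Zeb2hi CDPs (median -0.18). The 15 lower between the CDP groups became 3 without Zeb2hi array 2 or array 3, 8 and 7 without Zeb2low arrays 2 and 3, and 30 with the array number as a block over the CDP arrays. The 21 became 4 and 7 without Zeb2hi arrays 2 and 3, 5 and 13 without pre-CD8 arrays 1 and 2, and 10 with the block over all arrays. The smaller lists below are parts of these 115 genes. Among other kinetochore genes 5 of 30 were lower in Zeb2low CDPs, the largest being Pmf1, a subunit of the Mis12 complex (-1.30 ± 0.19, adjusted p = 0.00547), and 10 of 30 in pre-CD8 DCs against Zeb2hi CDPs. Cenph, a subunit of the inner kinetochore, was lower in pre-CD8 DCs than in Zeb2low CDPs (-1.15 ± 0.18, adjusted p = 0.0376) and than in Zeb2hi CDPs (-1.68 ± 0.18, adjusted p = 0.000932). Of 18 genes of the anaphase-promoting complex and mitotic exit 5 were lower in Zeb2low CDPs, led by Anapc5 (-0.97 ± 0.20, adjusted p = 0.0154), and the phosphatase Cdc14a was higher (0.89 ± 0.16, adjusted p = 0.00995). In pre-CD8 DCs against Zeb2hi CDPs 4 of these 18 were lower, and Cdc14a was higher again (1.31 ± 0.18, adjusted p = 0.00246). Cdc14a is 5.56% of its list, where 4.5% and 6.51% of all genes were higher in these 2 comparisons. With 1 array left out, Pmf1 passed in 8 of 8 fits, Cenph in 8 against Zeb2hi CDPs but in 2 against Zeb2low CDPs, Anapc5 in 6, and Cdc14a in 6 between the CDP groups and in 8 in pre-CD8 DCs.

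Among other spindle and cytokinesis genes 2 of 32 were lower in Zeb2low CDPs, Haus1 and the centrosome kinase Nek2 (-0.91 ± 0.15, adjusted p = 0.00795), and 2 were lower in pre-CD8 DCs than in Zeb2hi CDPs, Kntc1 and Haus1, a subunit of augmin (-1.14 ± 0.17, adjusted p = 0.00338). Of 16 cohesin and condensin II genes Ncaph2 alone was lower in Zeb2low CDPs (-0.90 ± 0.24, adjusted p = 0.0393), and Ncapg2 and Pds5a in pre-CD8 DCs against Zeb2hi CDPs (Pds5a -0.73 ± 0.15, adjusted p = 0.0137). Of 19 other regulators of entry and checkpoint Pbk and Wee1, the kinase that restrains Cdk1, were lower in Zeb2low CDPs (Pbk -1.37 ± 0.28, adjusted p = 0.0171). In pre-CD8 DCs against Zeb2hi CDPs Bora, Pbk and Wee1 were lower (Pbk -1.17 ± 0.32, adjusted p = 0.0357) and Nek6 was higher (1.05 ± 0.17, adjusted p = 0.00505). In the order of these lists 6.25%, 6.25% and 10.5% were lower between the CDP groups, against 10.3% of all genes. Lower in pre-CD8 DCs than in Zeb2hi CDPs were 6.25%, 12.5% and 15.8%, against 11.1% of all genes. Nek6 is 5.26% of its list, where 6.51% of all genes were higher. With 1 array left out, Nek2, Haus1 in pre-CD8 DCs and Nek6 passed in 8 of 8 fits, Pds5a in 7, Ncaph2 in 3, and Pbk in 4 between the CDP groups and in 5 in pre-CD8 DCs.

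Genes of DNA replication, the step before mitosis, are set beside them. Of 41 tested, 11 were lower in Zeb2low than in Zeb2hi CDPs and none was higher (26.8% lower, against 10.3% of all genes, median -0.40), led by Gins1, a subunit of the replicative helicase (-1.51 ± 0.16, adjusted p = 0.00181). Pole and Pole2 were lower in pre-CD8 DCs than in Zeb2low CDPs (4.88% of the list, against 0.217% of all genes). The median of the list was -0.63 there, and Pole2 was at -1.10 ± 0.17 (adjusted p = 0.0303). Between Zeb2hi CDPs and pre-CD8 DCs 27 of the 41 were lower (65.9%, against 11.1% of all genes, median -0.99), beside 3 of the 49 mitosis genes (median -0.23). The difference between the lists was not tested. After a further quantile normalization the 11 became 7 and the 27 became 24. The 11 became 1 without Zeb2hi array 2 or array 3, 6 and 5 without Zeb2low arrays 2 and 3, and 20 with the block over the CDP arrays. The 27 became 17 and 16 without Zeb2hi arrays 2 and 3, and 15 without pre-CD8 array 1. With 1 array left out Gins1 passed in 8 of 8 fits and Pole2 in 2. Of 23 regulators of the E2F, MuvB and B-Myb group, the transcription factors of both gene classes, the repressor gene E2f7 was higher in Zeb2low than in Zeb2hi CDPs (0.82 ± 0.21, adjusted p = 0.0315) and the list's median was 0.14. E2f7 alone is 4.35% of the list, near the 4.5% of all genes that were higher, and none was lower. In pre-CD8 DCs Mybl2, the gene of B-Myb, was lower than in Zeb2hi CDPs (-1.42 ± 0.20, adjusted p = 0.00265), as was Rbl1, while Rb1 was higher (0.64 ± 0.19) at an adjusted p just under the threshold. That made 8.7% of the list lower and 4.35% higher, below the 11.1% and 6.51% of all genes. With 1 array left out Mybl2 passed in 8 of 8 fits, E2f7 in 3 and Rb1 in 2.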

How the data were processed

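Per the submitters' processing notes, the authors used Affymetrix Expression Console with robust multi-array average (RMA), a method that itself includes a quantile normalization of the probes. The deposited table gives 1 linear intensity per probe set and array. Software versions and a genome build were not given in the sources used here. There are 28853 probe sets on 8 arrays, of which 21789 have 1 annotated gene, 1621 several and 5443 none. RMA gives no detection call, so whether a dim gene was expressed is not known. Differences of dim genes may also be understated.

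Intensities were log2 transformed here. Probe sets above the array's own 40th percentile on at least 2 arrays were kept, and the probe set with the highest mean stood for its gene, giving 13356 genes. All 8 arrays entered 1 limma 3.58.1 fit by group in R 4.3.3 (lmFit and eBayes, two-sided, 5 residual degrees of freedom), with Benjamini-Hochberg adjustment over all genes at 0.05. "Adjusted p" is this value throughout. The fit was tested on simulated data. Precision is limited by how few arrays there are.

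The mitosis genes, their role groups and the other gene lists were chosen with earlier results of these data known. Lists are described by counts and medians beside all genes, with no test. Values on every array are given for Birc5, Cdk1, each gene past the threshold and, in a role group with none, the gene with the largest difference. Of the other lists the largest difference past the threshold is given for some of the counts, and further genes are named for only some.

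Same-numbered Zeb2hi and Zeb2low arrays correlated in their deviations from the group means (r of 0.478, 0.407 and 0.308 over all genes). The numbers were therefore taken to pair the CDP arrays in the block over these arrays and in the differences within pairs. The main fit by group did not use this pairing. This pairing rests on the values alone, as the labels do not explain the numbers. Pre-CD8 arrays did not follow their numbers (r from -0.172 to -0.587). A total of 19 other settings were tried, 18 of them for the comparisons with pre-CD8 DCs. The counts of the other gene lists under these settings were added after the data were seen.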

Additional observations from a re-analysis of the deposited data

How the results depend on the processing

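The counts and medians of the mitosis genes and the 14 genes given on every array were recomputed under 19 other settings (18 for the comparisons with pre-CD8 DCs), among them no filter, a stricter filter, limma-trend, the mean of a gene's probe sets, only the groups compared and each array left out. Of 49 mitosis genes the 12 lower in Zeb2low than in Zeb2hi CDPs became 0 after quantile normalization and 20 with array weights, and ranged from 1 to 12 with 1 array left out. The count higher, 0, became 1 with array weights and 1 with the replicate block over the CDP arrays. With that block 18 were lower, and with the replicate block over all arrays 11. The median of -0.26 became -0.04 after quantile normalization. The 3 lower in pre-CD8 DCs than in Zeb2hi CDPs became 1 after quantile normalization, 6 after centring on array medians, 1 with the replicate block over all arrays, 1 without Zeb2low array 1 and pre-CD8 array 1 together, and 0 to 6 with 1 array left out. Without those 2 arrays the median between Zeb2low CDPs and pre-CD8 DCs was 0.30 in place of 0.04. The scaling settings act by construction on the whole array, and for the others the cause was not tested. The other counts of mitosis genes stayed within 1.5 times, and the other medians within the spread between arrays. Of the other mitosis genes, the 15 lower between the CDP groups ranged from 3 to 35 over the same settings (35 with array weights, 32 after centring) and the 21 lower in pre-CD8 DCs than in Zeb2hi CDPs from 4 to 28. Of the DNA replication genes the 11 ranged from 1 to 20 (20 with array weights, 19 after centring) and the 27 from 15 to 32. For the 14 genes given on every array, 197 of 266 values between the CDP groups kept direction and side of the threshold, 66 lost the call and 3 gained it, and none changed sign. Differences that had not passed changed sign as follows. Between Zeb2low CDPs and pre-CD8 DCs, after quantile normalization Birc5 was -0.01 and Cdk1 -0.12; Aurka was -0.03 with array weights, -0.10 without Zeb2low array 1 (-0.10 to 0.24 with 1 array left out) and -0.06 without both arrays named above; Cdk1 was -0.01, -0.00 and -0.11 without Zeb2low array 2, Zeb2low array 3 and pre-CD8 array 2 (-0.11 to 0.14 with 1 array left out); and Hmmr was -0.06 without pre-CD8 array 2 (-0.06 to 0.48). Between Zeb2hi CDPs and pre-CD8 DCs, Cenpa was 0.06 after quantile normalization and Ccnb2 -0.01 after centring. Where a fit left 1 pre-CD8 array, that array was assumed to vary like the others.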

Other observations

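Top2a was read by a second, dimmer probe set that the comparisons do not use. It gave log2 signals of 6.44, 5.91 and 5.89 on the Zeb2hi arrays, 6.20, 5.45 and 6.37 on the Zeb2low arrays and 5.47 and 6.47 on the pre-CD8 arrays. The groups overlapped there as they did for the brighter probe set, and pre-CD8 array 2 was again above array 1.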
